A study of Mus musculus with 12 samples.

Results

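The 7 genes Bbip1, Ahsg, Hsd17b11, Pdgfrb, Selenbp1, Zfp704 and Smox had a lower signal with interleukin-9 (IL-9) and with the chemokine CCL1 than in the cytokine-free arrays of BW5147, a T cell lymphoma line of mouse thymus. They were chosen by that lower signal with both cytokines, so their cytokine values describe the choice and carry no test. All probe sets (the array's short probe collections for 1 transcript) whose annotation gives 1 symbol equal to a member were taken, which gave 11 probe sets of 22626, and 7 genes of the 12394 named by 1 symbol, without the array's control probe sets. All 11 were among the 13575 whose mean level lay above the 40th percentile (a signal of 6.32), so none was lost to the filter on low values. Hsd17b11, Pdgfrb, Selenbp1 and Zfp704 had 2 probe sets each, and the 1 with the higher mean leads the account of its gene.

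The study held 6 groups of 2 arrays each. Cells received dexamethasone (Dex, a synthetic glucocorticoid) with IL-9, Dex with CCL1, Dex alone, IL-9 alone, CCL1 alone, or nothing (unstimulated), with Dex at 100 ng/ml, each cytokine at 100 U/ml and 8 h of treatment in all stimulated groups. All groups are the same unmodified cell line, and the arrays of a group are numbered 1 and 2. The labels do not say whether these numbers stand for separate cultures, so p-values reflect only how far these arrays differ, possibly for technical reasons, and the small number of arrays limits the precision.

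IL-9 acts through a receptor that shares the common gamma chain with other T cell growth factors and signals through JAK kinases and STAT factors, while CCL1 acts through the G protein-coupled receptor Ccr8. Both are known to protect thymic lymphoma cells from death caused by glucocorticoids. The glucocorticoid receptor is a nuclear receptor that binds DNA after Dex enters the cell, and thymic T cells are among its most sensitive targets.

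The members have unlike roles. Bbip1 encodes a small subunit of the BBSome, the coat complex that moves membrane proteins through the primary cilium. Ahsg encodes fetuin-A, a plasma glycoprotein of the cystatin superfamily made mainly by the liver that keeps calcium phosphate from precipitating. Hsd17b11 encodes a short-chain dehydrogenase of steroids that sits on lipid droplets, and Smox encodes spermine oxidase, which turns spermine into spermidine with release of hydrogen peroxide. Pdgfrb is a receptor tyrosine kinase for platelet-derived growth factor, best known from fibroblasts and mural cells. Selenbp1 encodes a selenium-binding protein that oxidises methanethiol in humans. Zfp704 encodes a zinc finger protein that the mouse gene table also lists as Gig1, a name given for glucocorticoid-induced gene.

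Promoter sequences were searched for 5 of the 7 members, and those of Pdgfrb and Zfp704 were left out. Those of Ahsg, Bbip1 and Smox are shown because these 3 genes rose with Dex in the arrays numbered 2. Each runs from 250 bases before the annotated start of the gene to 50 bases after it, 5′ to 3′ on the gene's own strand, and comes from RefSeq on the mouse build GRCm38.p6. Ahsg lies at chr16:22891765-22892064 on the plus strand, Bbip1 at chr19:53944578-53944877 on the minus strand, and Smox at chr2:131491612-131491911 on the plus strand. Capitals mark the glucocorticoid receptor half-site TGTTCT, read here on the opposite strand as AGAACA.
Ahsg: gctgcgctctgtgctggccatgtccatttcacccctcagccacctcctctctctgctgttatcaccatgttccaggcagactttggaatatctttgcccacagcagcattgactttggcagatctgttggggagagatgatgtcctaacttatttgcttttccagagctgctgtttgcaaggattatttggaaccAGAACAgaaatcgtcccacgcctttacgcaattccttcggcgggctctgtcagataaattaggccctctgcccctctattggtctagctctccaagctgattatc
Bbip1: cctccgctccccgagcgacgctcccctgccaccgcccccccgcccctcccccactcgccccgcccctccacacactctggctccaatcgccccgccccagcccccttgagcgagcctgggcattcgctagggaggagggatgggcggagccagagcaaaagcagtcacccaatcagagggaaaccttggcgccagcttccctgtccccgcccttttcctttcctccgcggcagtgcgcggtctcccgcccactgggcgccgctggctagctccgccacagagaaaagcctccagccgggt
Smox: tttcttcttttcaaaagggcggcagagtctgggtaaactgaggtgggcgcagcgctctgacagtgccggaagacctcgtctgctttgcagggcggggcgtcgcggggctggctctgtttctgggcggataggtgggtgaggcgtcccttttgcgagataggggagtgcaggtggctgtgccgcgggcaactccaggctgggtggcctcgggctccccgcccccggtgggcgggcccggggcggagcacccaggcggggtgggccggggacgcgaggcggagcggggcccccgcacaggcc
The half-site was found in 1 of the 5 member promoters, that of Ahsg, with its first base 55 bases before the start, and in 19.0% of 32851 mouse promoters of the same length. The STAT motif TTCNNNGAA was in 0 of the 5 (8.3% of all promoters), the AP-1 motif TGANTCA in 0 of the 5 (7.81%) and the E-box CACGTG in 0 of the 5 (7.15%). Both strands were searched, and a match in this window is a description of its letters.

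Some features of the arrays bear on the values. The array CCL1 2 was deposited in a table of its own, made on another array type with the same probe sets, and was left out of every test unless it is named as added. Differences between CCL1 2 and any other array, such as unstimulated 2, Dex+CCL1 2 or IL-9 2, cross these tables. In the arrays labelled without Dex and numbered 1, targets of the glucocorticoid receptor were as high as with Dex. Over 10 such targets the centred mean log2 level was 0.088 to 0.228 in the 6 Dex arrays, 0.094 to 0.221 in the 3 arrays without Dex numbered 1, and -0.577 to -0.496 in the 3 arrays without Dex numbered 2. The signal of Tsc22d3, the glucocorticoid-induced leucine zipper, was 349 for Dex 1 and 422 for Dex 2, against 347 in unstimulated 1 and 109 in unstimulated 2. The tests of Dex are therefore also given separately within the arrays of each number. The T cell markers Ptprc (mean signal 2579), Thy1 (1101) and Cd3g (592) were far above the filter, and 10 of 14 measured T cell markers passed the filter, while Cd2, Cd5, Rag1 and Rag2 did not.

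Each cytokine array was set against the cytokine-free array of the same Dex state and number, which gives 4 differences per cytokine on the scale log2(signal + 16). By the mean of these 8 differences Bbip1 and Ahsg were the lowest of the leading probe sets. By the CCL1 differences only, Ahsg, Hsd17b11, Smox and Zfp704 all lay under Bbip1. The order also moves with the scale, since at a pseudocount of 64 Ahsg had -0.46 with IL-9 and -0.51 with CCL1, against -0.52 and -0.58 for Hsd17b11. The signal of Bbip1 was 84.1 and 93.8 with Dex and IL-9, 114 and 125 with Dex and CCL1, and 218 and 199 with Dex alone (arrays 1 and 2). Without Dex it was 106 and 35.2 with IL-9, 97.8 and 61.1 with CCL1, and 191 and 108 in unstimulated cells. Both cytokines thus lay below their matched array in every pair, although the unstimulated array 2 was lower than some cytokine arrays of the other state. The mean difference of Bbip1 was -1.06 ± 0.234 with IL-9 and -0.75 ± 0.125 with CCL1 (SD, n = 4 each), or 0.48 and 0.594 times the level of the matched arrays. In these bulk extracts a smaller share of expressing cells and less RNA per cell cannot be told apart.

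Ahsg, a gene best known from liver, had a signal of 28.8 and 38.3 with Dex and IL-9, 21.5 and 31.8 with Dex and CCL1, and 67.8 and 94.7 with Dex alone. Without Dex the signals were 25.5 and 7.97 with IL-9, 18.5 and 14.6 with CCL1, and 53.8 and 24.0 in unstimulated cells. The arrays IL-9 2 and CCL1 2, at 7.97 and 14.6, lay under the median signal of all probe sets on the same array, which was 16.5 and 17.2. Every cytokine array was below its matched array. Its mean difference was -0.86 ± 0.137 with IL-9 and -0.94 ± 0.381 with CCL1 (SD, n = 4 each). The smallest of the CCL1 differences, -0.39, came from the pair that crosses the deposited tables, and without CCL1 2 the mean was -1.13. On the log2 scale with a pseudocount of 1 in place of 16 the Ahsg means were -1.25 and -1.33, since the added constant shrinks the differences of low signals.

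Hsd17b11 and Selenbp1 held the only member probe sets in which all 8 cytokine arrays lay below all 4 arrays without cytokine, 2 of the 11, against 0.936% of all probe sets. This count is drawn from the values used for the choice and describes it. For Hsd17b11 the signal was 52.5 and 70.7 with Dex and IL-9, 58.0 and 40.5 with Dex and CCL1, and 107 and 137 with Dex alone. Without Dex it was 59.2 and 52.3 with IL-9, 62.7 and 54.4 with CCL1, and 110.0 and 95.6 in unstimulated cells. The highest cytokine array, at 70.7, stayed under the lowest array without cytokine, at 95.6. The mean differences were -0.78 ± 0.063 with IL-9, the smallest SD among the 11 probe sets with IL-9, and -0.88 ± 0.376 with CCL1 (SD, n = 4 each). With CCL1 the pair of Dex+CCL1 2 and Dex 2 stood apart from the other 3 pairs at -1.44. The other probe set of Hsd17b11, at signals of 12.2 to 44.1, gave -0.44 with IL-9 and -0.57 with CCL1.

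For Selenbp1 the signal was 41.8 and 36.7 with Dex and IL-9, 40.3 and 33.1 with Dex and CCL1, and 77.3 and 77.2 with Dex alone. Without Dex it was 34.0 and 31.2 with IL-9, 31.6 and 27.9 with CCL1, and 59.0 and 52.1 in unstimulated cells. The cytokine arrays spanned 27.9 to 41.8 and the arrays without cytokine 52.1 to 77.3, with no overlap. The mean differences were -0.66 ± 0.13 with IL-9 and -0.74 ± 0.132 with CCL1 (SD, n = 4 each). This probe set is of the kind whose probes match more than 1 gene, and the transcript it was designed on belongs to the near-identical Selenbp2 in the mouse gene table, so Selenbp1 and Selenbp2 cannot be told apart in it. The other probe set, designed on a Selenbp1 transcript, gave -0.46 ± 0.334 with IL-9 and -0.48 ± 0.271 with CCL1 (SD, n = 4 each), and its groups met at 37.4 in the highest cytokine array and 36.9 in the lowest array without cytokine.

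**Figure D1:**
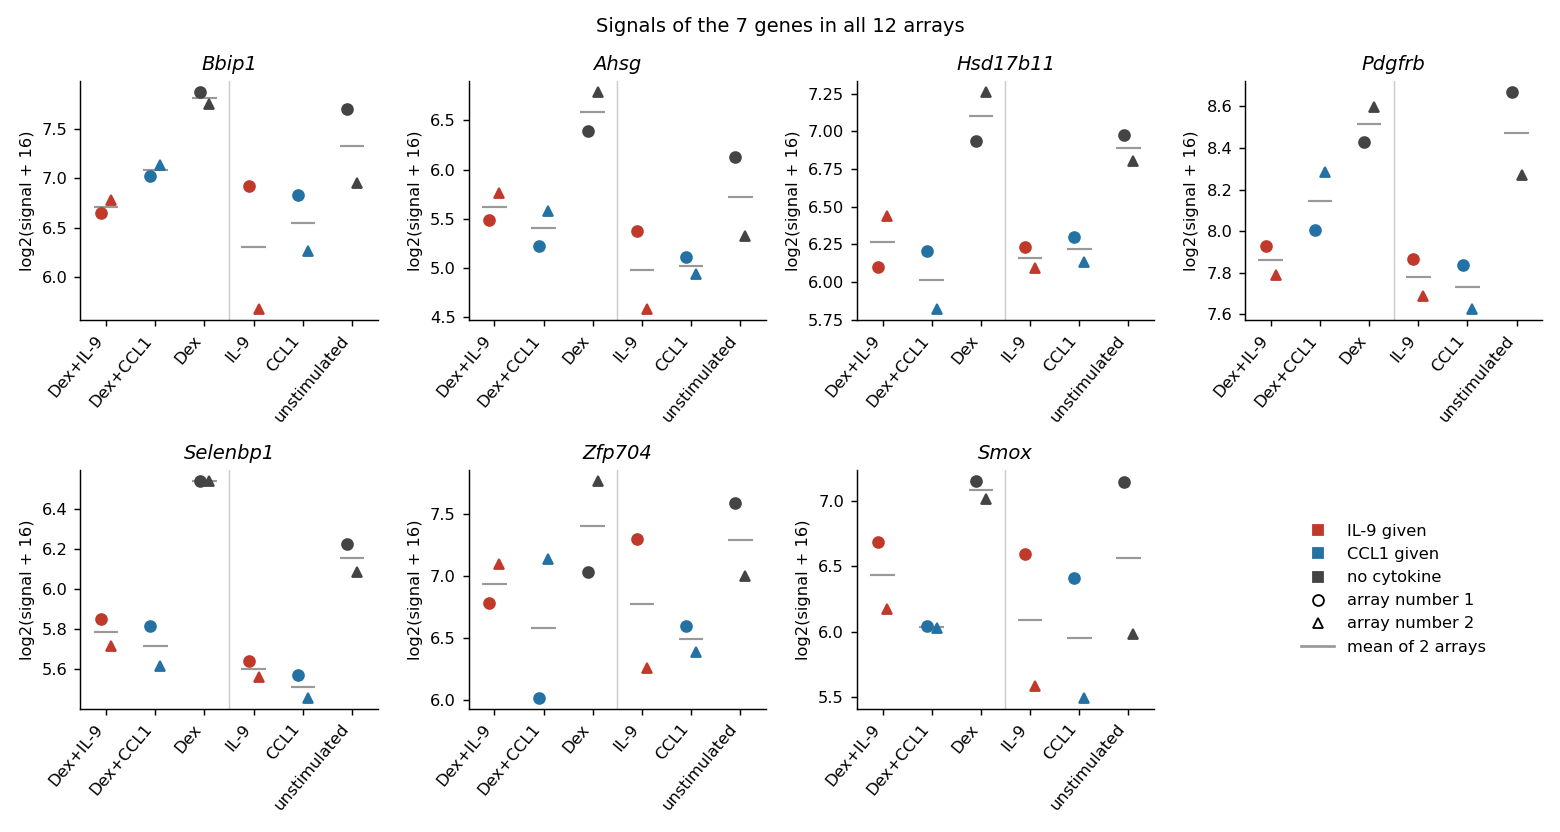
Level of the 7 genes, as log2(signal + 16) of the leading probe set, in all 12 arrays by group, with arrays given Dex to the left of the thin line. Points are single arrays (circles numbered 1, triangles numbered 2) and grey lines are means of 2 arrays. In Hsd17b11 and Selenbp1 every red or blue point lies under every dark one.

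Pdgfrb, the growth factor receptor, had a signal of 228 and 206 with Dex and IL-9, 241 and 296 with Dex and CCL1, and 329 and 371 with Dex alone. Without Dex it was 218 and 190.4 with IL-9, 212 and 181 with CCL1, and 391 and 293 in unstimulated cells. The groups met only at Dex+CCL1 2 and unstimulated 2. The mean differences were -0.67 ± 0.155 with IL-9 and -0.56 ± 0.233 with CCL1 (SD, n = 4 each). The other Pdgfrb probe set did not share this with IL-9: its difference was -0.07 ± 0.255, with 3 of 4 pairs below 0, and -0.33 ± 0.243 with CCL1 (SD, n = 4 each).

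Smox, the spermine oxidase gene, had a signal of 87.1 and 56.2 with Dex and IL-9, 50.1 and 49.4 with Dex and CCL1, and 126 and 113 with Dex alone. Without Dex it was 80.5 and 32.0 with IL-9, 68.9 and 29.1 with CCL1, and 126 and 47.2 in unstimulated cells. Unstimulated 2 was far under the other 3 arrays without cytokine and under 6 of the 8 cytokine arrays. The mean differences were -0.56 ± 0.194 with IL-9 and -0.83 ± 0.274 with CCL1 (SD, n = 4 each).

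Zfp704 had signals of 94.2 and 121 with Dex and IL-9, 48.8 and 125 with Dex and CCL1, and 115 and 202 with Dex alone. Without Dex they were 141 and 60.7 with IL-9, 80.9 and 67.7 with CCL1, and 176 and 112 in unstimulated cells. The 2 arrays given Dex and CCL1 lay far apart, and cytokine arrays overlapped with those without cytokine. The mean differences were -0.49 ± 0.256 with IL-9 and -0.81 ± 0.219 with CCL1 (SD, n = 4 each). The other Zfp704 probe set gave -0.09 ± 0.255 with IL-9, where 3 of 4 pairs were below 0, and -0.81 ± 0.207 with CCL1 (SD, n = 4 each).

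Counted over the members, all 4 IL-9 differences were below 0 in 9 of the 11 probe sets, against 13.1% of all probe sets, and all 4 CCL1 differences in 11 of the 11, against 10.3%. All 8 were below 0 in 9 of the 11 and in the 7 leading probe sets, against 4.46% of all probe sets. These counts follow from the choice of the members. The median difference was -0.56 with IL-9 and -0.75 with CCL1 over the 11 probe sets, against -0.01 and -0.01 over all probe sets. IL-9 and CCL1 were set against the same arrays without cytokine, and share them. Without CCL1 2 the CCL1 means of the leading probe sets were -0.52 (Pdgfrb) to -1.13 (Ahsg). By the mean of the 8 differences the leading probe sets ranked 3 (Bbip1), 5 (Ahsg), 6 (Hsd17b11), 16 (Selenbp1), 17 (Smox), 28 (Zfp704) and 34 (Pdgfrb) from the lowest of 13575. The other ranks up to 34 were held by probe sets outside the members. The choice names no cut-off. Pdgfrb, at -0.61, was followed by Sesn1, Bcl2l11 and Mettl7a1, each also at -0.61 or -0.60.

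**Figure D2:**
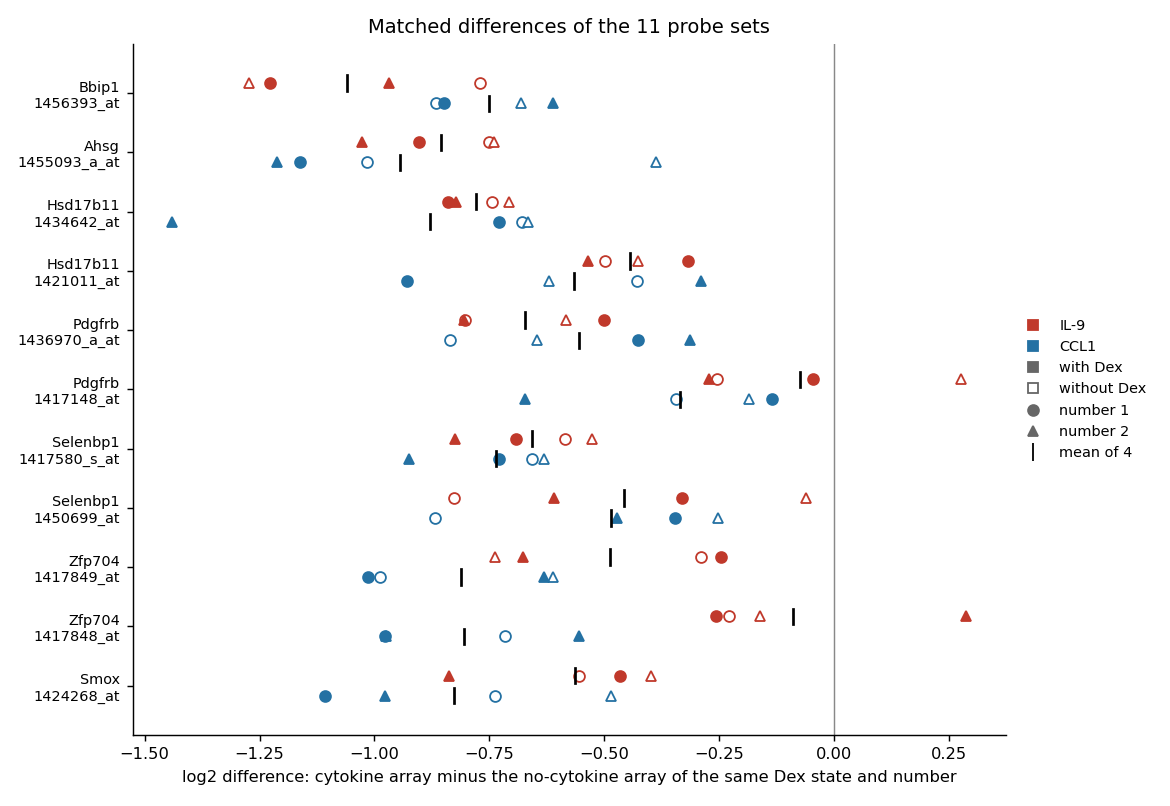
Difference in log2(signal + 16) between each cytokine array and the array without cytokine of the same Dex state and number, for the 11 probe sets. Filled symbols are pairs with Dex, open symbols without, circles are number 1 and triangles number 2, and the black bar is the mean of 4. Of the 88 pairs shown, the 2 to the right of 0 are IL-9 pairs of Pdgfrb 1417148_at and Zfp704 1417848_at.

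The differences with and without Dex are given without a test, as they are those used for the choice. Their means join both array numbers, though the glucocorticoid targets were as high as with Dex in the arrays without Dex numbered 1. With CCL1 the mean of the Dex pairs was -1.19 for Ahsg, -1.08 for Hsd17b11 and -1.04 for Smox, and the mean of the pairs without Dex was -0.70, -0.67 and -0.61. For Hsd17b11 the gap came from 1 array, Dex+CCL1 2, as the pairs with Dex were -0.73 (number 1) and -1.44 (number 2), against -0.68 and -0.67 without Dex. For Ahsg the pairs with Dex were -1.16 and -1.21, against -1.02 and, in the pair that crosses the deposited tables, -0.39. For Smox they were -1.11 and -0.98 with Dex, against -0.74 and, in the crossing pair, -0.49. Pdgfrb went the other way with CCL1, at -0.37 with Dex and -0.74 without. With IL-9 the pairs with Dex and without Dex gave -1.10 and -1.02 for Bbip1 and -0.97 and -0.75 for Ahsg. The single Bbip1 pairs with IL-9 were -1.23 (number 1) and -0.97 (number 2) with Dex, and -0.77 and -1.27 without.

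Markers of cells in which Ahsg and Pdgfrb are best known were mostly under the filter. Of 10 measured hepatocyte genes 1 passed the filter, Apoa2, with Alb at a mean signal of 4.12 and Fgb at 0.593, and the summed signal of the list was 19.2 to 56.2 in IL-9 arrays, 24.3 to 57.3 in CCL1 arrays and 33.0 to 43.1 in arrays without cytokine. Of 12 fibroblast and mural cell genes 2 passed, Col1a2 and Acta2, with summed signals of 32.9 to 92.5, 44.6 to 79.5 and 26.1 to 75.8 in the same 3 sets of arrays. Of 8 B cell and myeloid genes 3 passed, Cd68, Csf1r and Lyz2, with sums of 38.0 to 52.6, 37.3 to 52.3 and 29.2 to 59.4. None of these lists was lower in all cytokine arrays than in all others, but only 2 of the 11 member probe sets were either. Most listed genes lay under the filter, so a shift in a small share of cells could not show. The 3′ to 5′ ratio of the array's Gapdh control transcript, a measure of RNA integrity, was 0.684 to 0.762 in cytokine arrays and 0.682 to 0.781 in the others. Other cells and RNA quality were not tested as causes.

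Ahsg, Bbip1, Zfp704 and Smox rose with Dex in the arrays numbered 2. The rule for choosing members did not use this comparison, although they were chosen with earlier results of these data known. It was tested in a linear model of 11 arrays with 4 states (Dex or none, number 1 or 2) and the cytokine. Of the 11 probe sets 4 were called higher and 0 lower at an adjusted p under 0.05, against 0.508% and 0.0884% of all probe sets. The differences lay above 0 in all 11 probe sets, with a median of 0.37 against -0.01 over all probe sets.

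Ahsg rose by 1.32 log2 (SE 0.157, limma adjusted p = 0.00191). The size depends on the added constant for these low signals, at 2.05 with a pseudocount of 1 and 0.66 with 64, and the call was kept at both (adjusted p = 0.0015 and 0.00494). Its signal was 38.3, 31.8 and 94.7 in Dex+IL-9 2, Dex+CCL1 2 and Dex 2, against 7.97, 14.6 and 24.0 in IL-9 2, CCL1 2 and unstimulated 2. Each Dex array was above its matched array, as in 14.7% of all probe sets. Without unstimulated 2 the adjusted p was 0.0512, without Dex 2 the rise was 1.25 (adjusted p = 0.00783), and with CCL1 2 added it was 1.10 (adjusted p = 0.00625).

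Bbip1 rose by 1.00 log2 (SE 0.156, adjusted p = 0.0127), with signals of 93.8, 125 and 199 in the Dex arrays numbered 2 against 35.2, 61.1 and 108 in the matched arrays without Dex. Each Dex array exceeded its matched array, while Dex+IL-9 2 lay under unstimulated 2. The call was lost without IL-9 2 (0.86, adjusted p = 0.231) and without unstimulated 2 (1.14, adjusted p = 0.0668).

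Zfp704 1417849_at rose by 0.93 (SE 0.183, adjusted p = 0.0481) and Smox by 0.83 (SE 0.163, adjusted p = 0.0481). The Zfp704 signals were 121, 125 and 202 with Dex against 60.7, 67.7 and 112 without, in the order IL-9, CCL1 and no cytokine. The Smox signals were 56.2, 49.4 and 113 with Dex against 32.0, 29.1 and 47.2 without. In both genes each Dex array numbered 2 was above its matched array without Dex, as in 14.7% of all probe sets. For Smox the lowest of these arrays with Dex, at 49.4, was close to the highest without, at 47.2. With a pseudocount of 64 the Smox difference was 0.52 (adjusted p = 0.0722). Both calls stand at the threshold and were lost without any 1 array other than Dex+IL-9 2, with adjusted p from 0.0292 to 0.417 for Zfp704 and from 0.0356 to 0.551 for Smox over the arrays left out.

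The other 7 probe sets did not pass. Pdgfrb 1417148_at came nearest, with a difference of 0.66 (SE 0.174, adjusted p = 0.2), and the leading probe sets of Pdgfrb, Selenbp1 and Hsd17b11 had 0.30 (95% interval -0.02 to 0.62), 0.28 (-0.06 to 0.61) and 0.24 (-0.17 to 0.65). The second probe sets had 0.37 (0.02 to 0.73) for Zfp704, 0.28 (-0.16 to 0.71) for Hsd17b11 and 0.24 (-0.18 to 0.66) for Selenbp1. Counted by single pairs, 9 of the 11 probe sets had all 3 Dex differences above 0, against 14.7% of all probe sets. The CCL1 pair in this count crosses the deposited tables.

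In the arrays numbered 1, none of the 11 probe sets was called, and 0 of the 13575 were in either direction (339 at an unadjusted p under 0.05). The difference was 0.17 for Ahsg (95% interval -0.13 to 0.46), 0.03 for Bbip1 (-0.26 to 0.32), -0.09 for Smox (-0.40 to 0.22) and -0.55 for Zfp704 (-0.89 to -0.20), which is on the other side of 0. Here 3 of the 11 probe sets had all 3 pairs above 0, against 15.4% of all probe sets. Averaged over both numbers in a model with 1 mean per group, Dex called 0 of 13575 probe sets by limma (208 at an unadjusted p under 0.05), and Ahsg had 0.60 (SE 0.198), Bbip1 0.38 (SE 0.213), Smox 0.16 (SE 0.235) and Zfp704 0.08 (SE 0.255).

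The difference of the Dex effect between the numbers was itself tested. Zfp704 1417849_at was the 1 of 11 probe sets past the threshold, with 1.48 log2 (SE 0.241, adjusted p = 0.0287), where 0.199% of all probe sets were called higher and 0.00737% lower. Its signal was 121, 125 and 202 in Dex arrays numbered 2 and 94.2, 48.8 and 115 in those numbered 1, while in the arrays without Dex it was 60.7, 67.7 and 112 in number 2 and 141, 80.9 and 176 in number 1. The call held without Dex+IL-9 1, Dex+IL-9 2, Dex+CCL1 2 or Dex 2 and was lost without any 1 of the other 7 arrays, with adjusted p up to 0.237. Ahsg had 1.15 (adjusted p = 0.0573), Bbip1 0.97 (adjusted p = 0.132) and Smox 0.92 (adjusted p = 0.176), which did not pass.

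**Figure D3:**
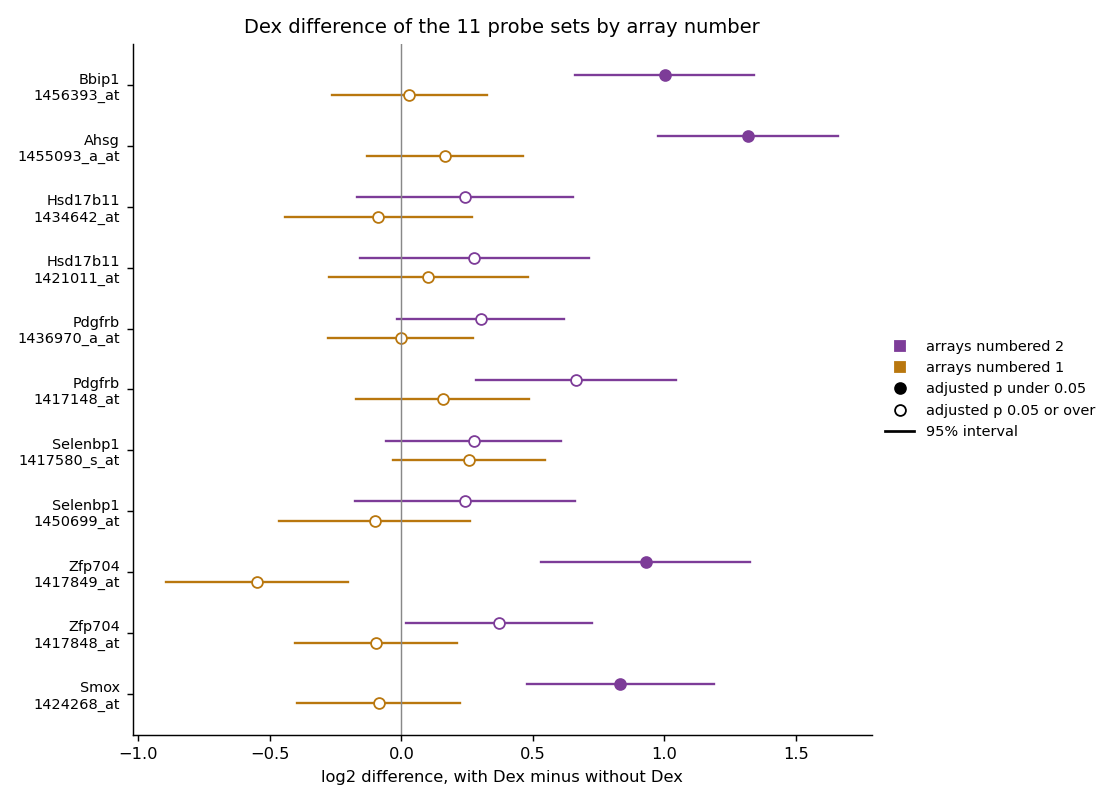
Difference in log2(signal + 16) between arrays with and without Dex, fitted separately for the arrays numbered 2 (purple) and 1 (brown), with 95% intervals and filled points where the adjusted p is under 0.05. Ahsg, Bbip1, Zfp704 1417849_at and Smox are filled in number 2, and no point is filled in number 1.

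Among the arrays without Dex, Smox, Bbip1 and Ahsg were higher in number 1 than in number 2. Of the 11 probe sets 3 were called higher and 0 lower, against 0.626% and 0.169% of all probe sets (0.796% in either direction). The arrays without Dex numbered 2 enter this contrast and the Dex comparison of number 2 alike. Smox had 1.14 log2 (SE 0.163, adjusted p = 0.00486), with signals of 80.5, 68.9 and 126 in number 1 against 32.0, 29.1 and 47.2 in number 2, in the order IL-9, CCL1 and unstimulated. Bbip1 had 0.93 (SE 0.156, adjusted p = 0.0154) and Ahsg 0.81 (SE 0.157, adjusted p = 0.0355). Zfp704 1417849_at had 0.76 (SE 0.183, adjusted p = 0.103). Smox lost its call without unstimulated 2 (adjusted p = 0.118), Bbip1 without either array of IL-9 or of the unstimulated group (adjusted p up to 0.256), and Ahsg without any 1 array except Dex 2 and Dex+IL-9 2 (adjusted p up to 0.379) and with CCL1 2 added (0.59, adjusted p = 0.134). The glucocorticoid targets were higher in the same arrays numbered 1, at centred means of 0.094 to 0.221 against -0.577 to -0.496 in number 2, and their part in these differences was not tested.

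Set against each other, IL-9 and CCL1 differed in 1 of the 11 probe sets, at the threshold and only in the model of Dex state and array number. This contrast sets cytokine arrays against each other, and arrays without cytokine enter it only through the estimates of Dex state and number. The members were chosen for low levels with both cytokines, so it is not independent of the choice in size. Zfp704 1417848_at was higher with IL-9 by 0.67 log2 (SE 0.136, 95% interval 0.37 to 0.97, adjusted p = 0.0488), where 0.339% of all probe sets were called higher and 0.435% lower. Its signal was 86.7 and 93.0 with Dex and IL-9 against 46.4 and 44.8 with Dex and CCL1, and 88.8 and 56.4 with IL-9 against 58.9 and 25.2 with CCL1. Every IL-9 array exceeded the CCL1 array of its state and number, where the pair of IL-9 2 and CCL1 2 crosses the deposited tables. The call was kept without Dex 2 (adjusted p = 0.00934) and with CCL1 2 added (adjusted p = 0.00895), and lost without any 1 of the other 10 arrays of the fit, with adjusted p up to 0.367. In a model of 1 mean per group, without the array number, the difference was 0.50 and the call was not kept. There CCL1 1 is the only array of its group, so the number was not the only change. The call was also lost with no filter (adjusted p = 0.099), the 60th percentile filter (0.0516), no intensity trend (0.0581) or a pseudocount of 64 (0.43, adjusted p = 0.0544).

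The leading Zfp704 probe set pointed the same way at 0.43 (95% interval 0.10 to 0.77, adjusted p = 0.429), as did Smox at 0.35 (0.05 to 0.65, adjusted p = 0.535). Bbip1 had -0.25 (-0.53 to 0.04) and Pdgfrb 1436970_a_at -0.16 (-0.43 to 0.10), both nominally lower with IL-9. Ahsg had 0.26 (-0.03 to 0.54), Hsd17b11 1434642_at 0.16 (-0.19 to 0.50) and Selenbp1 1417580_s_at 0.09 (-0.19 to 0.37). The second probe sets had 0.25 (-0.07 to 0.57) for Pdgfrb, 0.10 (-0.26 to 0.47) for Hsd17b11 and 0.04 (-0.31 to 0.39) for Selenbp1. None of these 10 passed, and the intervals of the 7 leading probe sets reach 0.37 to 0.77 in size.

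**Figure D4:**
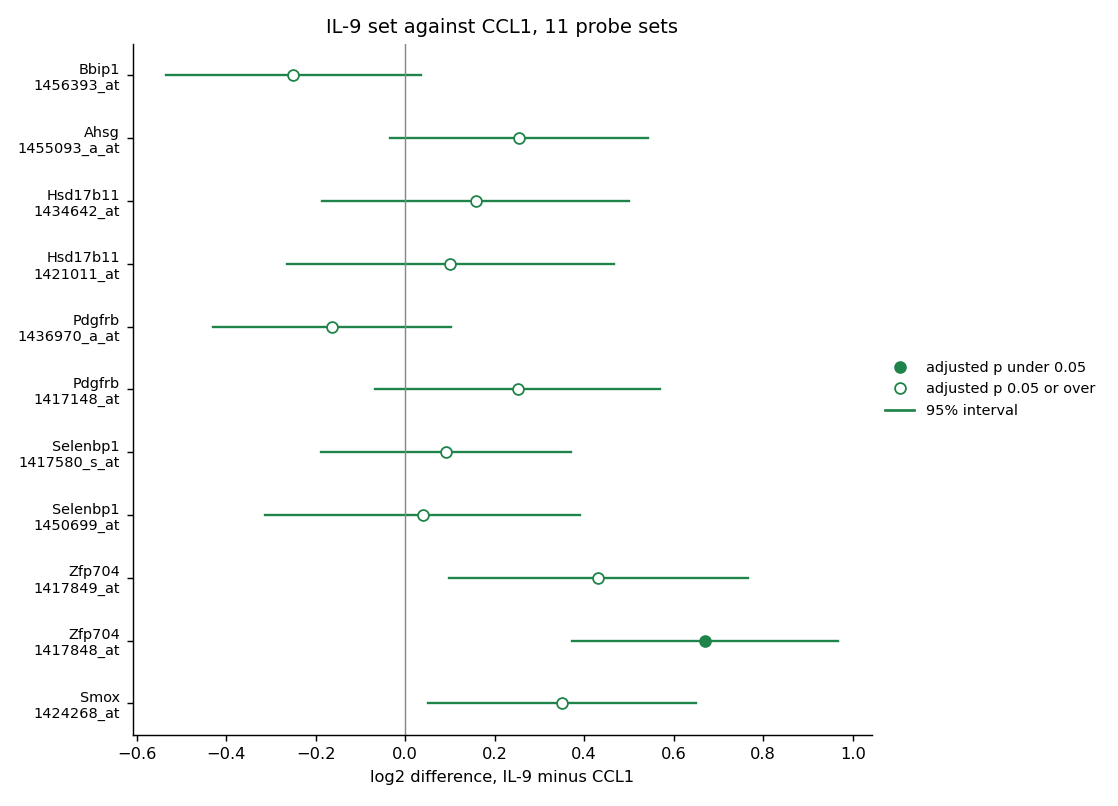
Difference in log2(signal + 16) between IL-9 and CCL1, averaged over Dex states and array numbers in the model of 11 arrays, with 95% intervals. Zfp704 1417848_at, at 0.67, is the 1 filled point (adjusted p under 0.05). Bbip1 and Pdgfrb 1436970_a_at are the 2 points left of 0.

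Other genes of the members' pathways and families were taken from lists. None of the 34 that passed the filter, on 6 lists, had all 8 differences below 0, against 4.46% of all probe sets. None was called with Dex in the arrays numbered 2 either, near the 0.597% of all probe sets called there. Of the BBSome and its chaperones, 4 genes besides Bbip1 were measured above the filter, all 4 with a mean of the 8 differences below 0 and a median of -0.15, against -0.02 over 7507 genes. The subunits Bbs9 and Ttc8 had -0.29 and -0.16, and Mkks, a chaperonin-like assembly factor, had -0.13. In the polyamine pathway of Smox 1 of 11 genes had a mean below 0, with a median of 0.08. That gene, named after its value was seen, was Oaz2, an antizyme of ornithine decarboxylase, at -0.22. Atp13a3, a polyamine transporter, had 0.44, and Srm, the spermidine synthase, had 0.32 with all 8 differences above 0. Oaz1, another antizyme, had 0.05 and Eif5a, the translation factor that carries the polyamine-derived hypusine, had 0.11.

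Of 8 genes for 17-beta-hydroxysteroid dehydrogenases and lipid droplet proteins, 4 were below 0 and the median was 0.01. Hsd17b4, the peroxisomal member of the family, had -0.37 with 7 of 8 differences below 0, and Abhd5, the activator of the droplet lipase, had 0.21. Hsd17b10 and Hsd17b12, also dehydrogenases, had 0.04 and 0.17. Of 6 genes for selenium and thiol handling all 6 were below 0, with a median of -0.07. The median over all genes was -0.02, so most genes were below 0 too. The 6 ran from Tst (-0.26) and Ethe1 (-0.24), both enzymes of mitochondrial sulfide oxidation, to Cth (-0.08) and the glutathione peroxidase Gpx1 (-0.01). Tst had a low mean signal of 9.54, and Gpx1 lay above the median of all genes. The mean of Cth joined -0.28 with IL-9 and 0.13 with CCL1. Of 4 cystatin relatives of Ahsg 2 were below 0, with Cst3 at -0.13 and Cstb at -0.17. Zfp395, the 1 measured relative of Zfp704, had -0.21. None of the 5 other PDGF ligands and receptors passed the filter, which leaves Pdgfrb as the 1 gene of its family past it.

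The members varied together over the 12 arrays. Their mean centred level was -0.10 and -0.06 with Dex and IL-9, -0.27 and -0.09 with Dex and CCL1, and 0.59 and 0.79 with Dex alone. Without Dex it was -0.04 and -0.68 with IL-9, -0.22 and -0.56 with CCL1, and 0.60 and 0.03 in unstimulated cells. The lowest arrays were those given a cytokine, without Dex and numbered 2, and unstimulated 2 lay well under the other 3 arrays without cytokine. Over the 21 pairs of members Pearson's r across the 12 arrays was 0.595 (Selenbp1 and Zfp704) to 0.896 (Bbip1 and Ahsg) with a median of 0.771, which describes these arrays, since all genes share them and were chosen for the same difference.

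The 8 genes outside the set most like this mean were Mxd4 (r = 0.955), Stmn1 (0.943), Nicn1 (0.932), Incenp (0.924), Chdh (0.922), Ndufa2 (0.921), Mtmr9 (0.919) and Ift46 (0.916), over 12 arrays. All 8 had all 8 cytokine differences below 0, against 4.46% of all probe sets, but they were picked for likeness to a mean that is itself lower with the cytokines, so this follows from the choice. Mxd4, a MAX-binding repressor that opposes MYC, had differences of -1.05 with IL-9 and -0.79 with CCL1, close to those of Bbip1, and Chdh, the choline dehydrogenase, had -0.54 and -0.61. Incenp, a centromere protein, and Ndufa2, a subunit of respiratory complex I, had differences of only -0.18 to -0.20. In the arrays numbered 2 the Dex difference was above 0 in all 8, from 0.19 (Incenp) to 0.93 (Chdh), and Chdh was the 1 that passed the threshold (adjusted p = 0.00631), with Mxd4 at 0.82 (adjusted p = 0.0517). The likeness was taken over these same arrays, so these values are a description.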

How the data were processed

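Total RNA of 12 samples was measured on Affymetrix arrays. The deposited intensity values are linear signals made by the authors with MAS5, per the submitters' processing notes, whose version is not given in the sources used here. They came in 2 tables, 1 of 11 arrays and 1 with CCL1 2, and every array had a mean of 100.0 or 100.1 once 2% was trimmed from either end. That scaling hides a change of all genes in 1 direction. No value column (0) was without a sample.

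After removal of 64 control probe sets the scale was log2(signal + 16), which understates folds of low signals. Symbols came from the platform annotation (20393 probe sets had 1 symbol, 691 several, 1606 none), and none of the 691 named a member. Identifiers of all 7 members matched the GRCm38.p6 gene table, used for names only. Promoters came from RefSeq.

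Tests were made in limma 3.58.1 (R 4.3.3) with an intensity trend, 5 residual degrees of freedom, and Benjamini-Hochberg adjustment over 13575 probe sets at a threshold of 0.05. The Dex average used 1 mean per group (6.47 prior degrees of freedom), over 11 arrays. The other contrasts used 4 states of Dex and number plus the cytokine (6.96 prior degrees of freedom), over the same arrays. Python 3.11.15 and pandas 2.3.3 made the descriptions. The fits were checked on simulated data. They recovered 22% (difference of the Dex effect between numbers) to 90% (Dex average) of changes of 1 log2. False calls made up 2.82% (Dex in number 1) to 6.09% (difference between numbers) of the calls.

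Every probe set with 1 symbol equal to a member is reported, led by the probe set of highest mean. List genes named are those called with Dex, the 2 brightest and the 2 with the largest mean cytokine difference. Oaz2 was added after its value was seen. The most similar genes are the 8 highest by r. The members, lists and alternatives were chosen with earlier results of these data known. The alternatives tried were quantile normalization, centring on the median, a pseudocount of 1 or 64, the 60th percentile as filter or none, no trend, CCL1 2 added, the replicate number as a block or not, and each array left out.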

Additional observations from a re-analysis of the deposited data

Results flagged for a closer look

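For Zfp704 1417849_at the Dex effect differed between the array numbers, by 1.48 log2 in number 2 minus number 1 (SE 0.241, limma adjusted p = 0.0287). The 3 pairs numbered 2 were 0.83 with IL-9, 0.75 with CCL1 and 0.77 without cytokine, all above 0. The CCL1 pair of number 2 crosses the deposited tables, and its array CCL1 2 was not in the fit. The 3 pairs numbered 1 were -0.51, -0.58 and -0.56, all below 0. The other Zfp704 probe set had 0.47 (adjusted p = 0.496). In the arrays without Dex numbered 1, glucocorticoid targets were as high as with Dex, and their part in the difference was not tested.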

How the results depend on the processing

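The cytokine differences kept their sign in the mean of all 11 probe sets under every alternative run. The counts with all differences below 0 were 9 to 10 of 11 for IL-9 and for both cytokines and 11 for CCL1 with each array left out. Pseudocounts moved 20 single means by more than 1 SD.

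For Dex in the arrays numbered 2 the count of called probe sets was 81, 44 without a filter, and 29 to 116 with each array left out. The difference of the Dex effect between numbers called 28, and 15 to 44 with each array left out. Number 1 minus number 2 without Dex called 108, 65 without a filter, 199 with CCL1 2 added, and 46 to 217 with each array left out. IL-9 versus CCL1 called 105, 66 without a filter, 160 with CCL1 2 added, and 34 to 211 with each array left out. The causes were not tested. The Dex average could not be fitted without CCL1 replicate 1, which empties that group.

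The labels tie the array numbers to no shared culture or day. The correlation of the difference between numbers over probe sets was -0.01 to 0.31 over 10 pairs of groups and so not clearly above 0 in all of them, and the samples were taken to share only a number. With the replicate number as a block the averaged Dex effect called 0 probe sets (276 at an unadjusted p under 0.05), as without it. IL-9 versus CCL1 without the replicate block called 32 (12 higher, 20 lower), and Zfp704 1417848_at had 0.50 (adjusted p = 0.957).

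Single differences near 0 changed sign, none of them called. With each array left out, Selenbp1 1450699_at with Dex in number 2 ranged from -0.022 to 0.507. With Dex in number 1, Bbip1 ranged from -0.069 to 0.175 and was -0.004 with median centring, and Smox ranged from -0.176 to 0.035. In IL-9 versus CCL1, Hsd17b11 1421011_at ranged from -0.122 to 0.252, Hsd17b11 1434642_at from -0.083 to 0.278 and Selenbp1 1450699_at from -0.055 to 0.113. Called members lost calls as stated with each result.

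Calls of Zfp704 1417849_at with Dex were also lost with the 60th percentile filter, no filter, no intensity trend or a pseudocount of 1, and of Smox with median centring, no filter, no intensity trend or a pseudocount of 64 (adjusted p up to 0.106 and 0.105). Ahsg did not pass the 60th percentile filter. Zfp704 1417849_at lost its difference between numbers with no filter (adjusted p = 0.068) or no intensity trend (0.0592), and Ahsg gained it with median centring, quantile normalization, no intensity trend or a pseudocount of 1 (lowest 0.0303). Ahsg lost its difference between numbers without Dex with no filter or a pseudocount of 64. Zfp704 1417848_at lost its IL-9 versus CCL1 call with either other filter, no intensity trend or a pseudocount of 64, and passed for number 1 minus number 2 without Dex with CCL1 2 added (0.0311) or without Dex replicate 2 (0.0409). The small number of arrays limits all of these.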
